A study of Mus musculus with 18 samples.

Results

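The 5 miRNAs of the miR-200 family (miR-200b-3p, miR-200a-3p, miR-429-3p, miR-200c-3p and miR-141-3p) were followed together with miR-203-3p and miR-205-5p. They are listed as mmu-miR-200b-3p, mmu-miR-200a-3p, mmu-miR-429-3p, mmu-miR-200c-3p, mmu-miR-141-3p, mmu-miR-203-3p and mmu-miR-205-5p. These 7 epithelial miRNAs were taken by name from a table of 1966 mature mouse miRNAs. The rule is a list of names and applies no threshold to a measured value, although earlier results of these data were known when it was set. Small RNA libraries had been sequenced from 3 wildtype adrenal glands (AG), from 7 tumors carrying the R26 IGF2BP1 transgene (TI) and from 8 tumors carrying both the R26 IGF2BP1 and MYCN transgenes (TIM). AG carried no Cre (genotype label CRE -). Of the TI tumors, 6 were labelled IGF2BP1 +/+, CRE + and 1 IGF2BP1 +/-, CRE +, while all 8 TIM tumors were labelled IMP1/MYCN, CRE +, IMP1 being another name of IGF2BP1. The transgenes sat in the Rosa26 locus behind a stop cassette, without the native 3′UTR, and an iCRE driven by the Dbh promoter switched them on in adrenal gland and peripheral sympathetic nerves, in mice backcrossed to C57Bl6/N. The model is one of neuroblastoma, a childhood tumor of the sympathetic nervous system. No age was given in the labels, but the study reports a shorter median survival of IGF2BP1/MYCN mice than of homozygous IGF2BP1 mice. Since both transgenes occupy the same locus, TIM and the IGF2BP1 +/+ tumors also differed in their copies of the IGF2BP1 transgene. In comparisons of TIM with TI, added MYCN, IGF2BP1 dose and age therefore cannot be told apart. Among the tumors, 1 TI and 2 TIM were labelled as adrenal gland and 1 TIM tumor as spine, but the table columns name only the group, so these tumors and the heterozygous one could not be picked out. The libraries are therefore called by letters in column order (AG A to C, TI A to G, TIM A to H).

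MiRNAs guide the silencing complex to mRNAs that pair with the seed, the bases at positions 2 to 8 of the mature strand. The miR-200 family is high in epithelia, where it represses the transcription factors ZEB1 and ZEB2, which in turn repress the miR-200 genes, a circuit best known from epithelial-mesenchymal transition. MiR-205 is typical of basal epithelial cells and also represses ZEB factors, and miR-203 is abundant in stratified epithelium such as skin, where it represses p63. The adrenal medulla and neuroblastoma derive from the neural crest and are not epithelia in this sense. The labels name AG as adrenal gland, not as medulla, and 6 TI and 5 TIM tumors only as tumor. Differences from AG can therefore also be differences between tissues, which was not tested.

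The mature sequences are shown first because they sort the 7 miRNAs into seed groups and show how few bases separate the family members. They are the RefSeq sequences of build GRCm38.p6, written 5′ to 3′ with the seed in capitals.
miR-200b-3p: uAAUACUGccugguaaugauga
miR-200c-3p: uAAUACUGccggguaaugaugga
miR-429-3p: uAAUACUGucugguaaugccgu
miR-200a-3p: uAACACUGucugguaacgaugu
miR-141-3p: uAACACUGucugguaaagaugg
miR-203-3p: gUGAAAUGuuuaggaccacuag
miR-205-5p: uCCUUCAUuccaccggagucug
MiR-200b-3p, miR-200c-3p and miR-429-3p shared the seed AAUACUG, and miR-200a-3p and miR-141-3p shared AACACUG, which differs from it at U4C (positions counted from 1 at the 5′ end, the base of miR-200b-3p first). Among 1679 mature mouse miRNAs listed with a sequence, no other carried either of these seeds, nor those of miR-203-3p or miR-205-5p. Over the 22 bases of miR-200b-3p, miR-200c-3p differed at U11G and A22G. MiR-141-3p differed from miR-200a-3p at C17A and U22G. How the counting treated reads that match several miRNAs is not given in the sources used here, so part of the reads of these near-identical pairs may have been split between them.

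The seed groups do not follow the genome. In GRCm38.p6, the hairpins of miR-200b, miR-200a and miR-429 lie within 1846 bases on the minus strand of chromosome 4 (chr4:156053905-156055750), and those of miR-200c and miR-141 within 477 bases on the minus strand of chromosome 6 (chr6:124717914-124718390). MiR-203 lies on the plus strand (chr12:112130880-112130955) and miR-205 on the minus strand (chr1:193507463-193507530). In the GENCODE annotation of the later build GRCm39, miR-200b and miR-200a fall in introns of Ttll10 and of the lncRNA Gm13648, and miR-429 in an exon of the latter. MiR-200c overlaps an exon of the lncRNA Gm15884 and miR-141 lies in its intron. MiR-205 overlaps an exon of its host gene Mir205hg, and miR-203 lies opposite an intron of the lncRNA Gm60070.

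The libraries held 11641696 to 23435621 reads on miRNAs, and levels are given in CPM after the authors' TMM scaling, that is, as reads scaled to a common library size. At this depth 3 reads corresponded to 0.101 to 0.272 CPM, and no pair of libraries was identical. MiR-148a-3p alone took 4.19 to 6.94% of the reads in AG, 2.29 to 61.9% in TI and 6.53 to 44.2% in TIM. Library TIM A stood apart by its skeletal muscle miRNAs (summed level of 22972 CPM against at most 344 CPM in any other library) and TI E by the lowest share of miR-148a-3p. The fits were therefore also made without these 2 libraries. Among cell type lists, the endothelial miRNAs miR-126a-3p and miR-126a-5p fell in both tumor types (summed 38529 to 46092 CPM in AG, 1704 to 6736 CPM in TI and 2428 to 8943 CPM in TIM). The neuronal miRNAs rose, with 2 of 3 called higher in TI and 3 of 3 in TIM at the threshold given below. Over all miRNAs tested, 26.4% were called higher in TI and 25.5% in TIM. In bulk tissue, fewer cells of a type and less RNA per cell cannot be told apart. Whether each library came from a separate animal is not stated for the small RNA libraries, so p-values measure only the spread between these samples.

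All 7 miRNAs passed the filter of at least 1 CPM in at least 3 libraries, as did 726 of the 1966. Members were called with limma at a Benjamini-Hochberg adjusted p of 0.05 over these 726, and log2 differences are on the log2(CPM + 1) scale, which understates changes of low miRNAs. Between TI and AG, 0 of 7 members were called (1 at an unadjusted p under 0.05), where 55.8% of all miRNAs tested were called (26.4% higher and 29.3% lower) and 61.8% were under the unadjusted threshold. For 0 of 7 members did TI and AG not overlap, against 46.4% of all. The median log2 difference of the members was 0.53, against -0.01 over all miRNAs tested. On reads recovered from the table, edgeR also called 0 members in this comparison and DESeq2 called 2, miR-200c-3p (2.799, adjusted p = 0.017) and miR-205-5p (4.79, adjusted p = 0.0071), both higher. Over all miRNAs, the alternative settings called 300 to 447 in this comparison. Between TIM and AG, 1 of 7 was called, miR-203-3p, which was lower, where 51.4% of all were called (25.5% higher and 25.9% lower). It was also the 1 member under an unadjusted p of 0.05, against 56.7% of all. The members' median there was -0.92, against 0.18 over all. Both comparisons use the same 3 AG libraries. Between TIM and TI, 1 of 7 was called, again miR-203-3p and again lower, where 5.23% of all were called (3.44% higher and 1.79% lower). Groups that did not overlap were 0 of 7 here and 0.275% of all. In this last comparison all 7 members had a log2 difference below 0 (median -1.53, against 0.06 over all). Of the 7, 4 were under an unadjusted p of 0.05, against 22.7% of all miRNAs tested. The members are not independent, so these counts hold fewer than 7 separate observations. Over the 15 tumor libraries, taken as deviations from each tumor type's mean, Pearson's r with miR-200b-3p was 0.92 to 0.98 for the other miR-200 family members. It was 0.77 for miR-205-5p and -0.11 for miR-203-3p. Among the tumors, TI C ranked 1 and TI G ranked 2 for all 5 family members. Between TIM and TI, DESeq2 called 5 members lower (miR-200a-3p, miR-429-3p, miR-141-3p, miR-203-3p and miR-205-5p), and limma called 0 without the TMM factors. DESeq2 also called more of all miRNAs there than the main fit did, and edgeR called only 3. The counts for each method are given in the last section.

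**Figure D1:**
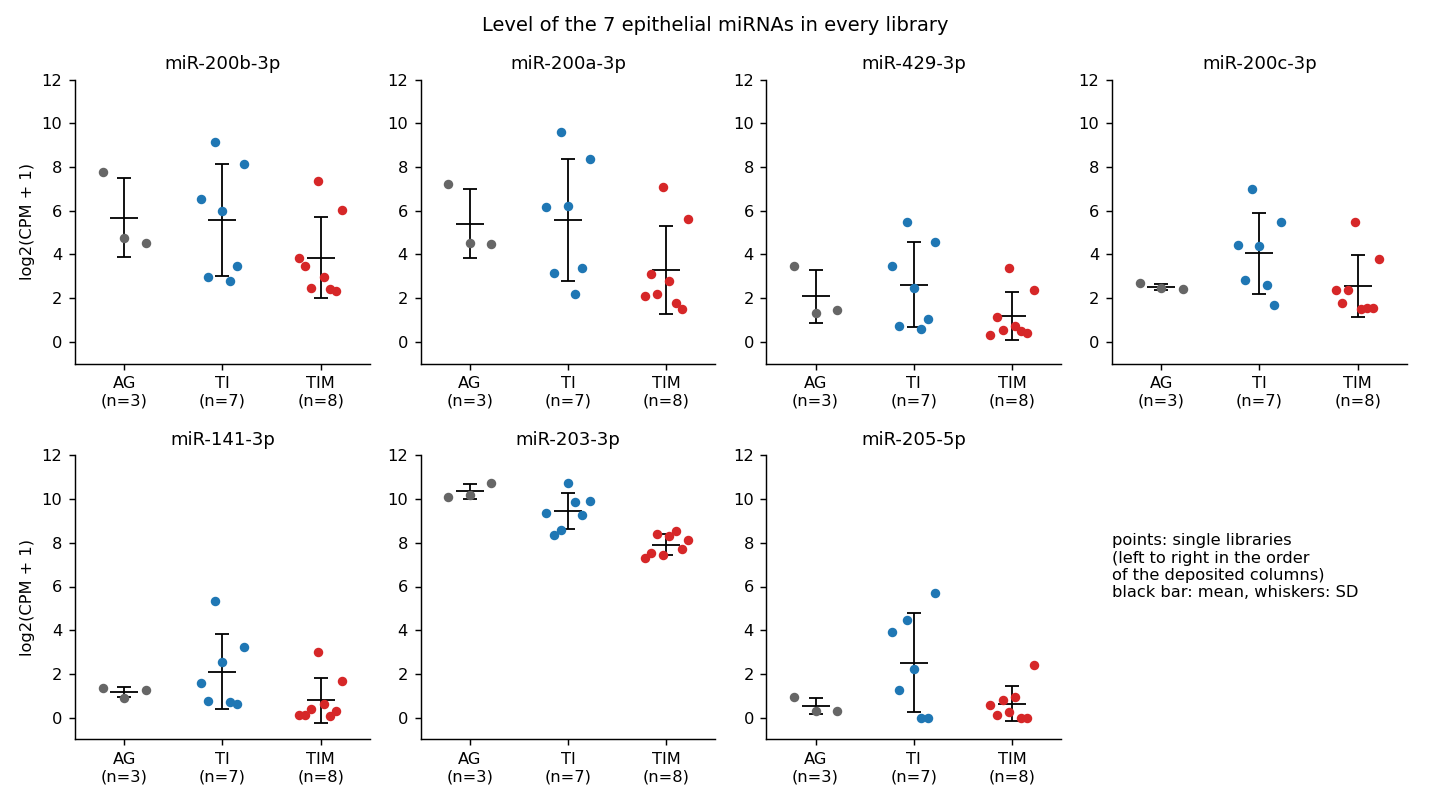
Level of each of the 7 miRNAs as log2(CPM + 1) in every library, AG in grey, TI in blue and TIM in red, with the group mean as a bar and the SD as whiskers. MiR-203-3p lay between 1107 and 1711 CPM in AG and between 159 and 366 CPM in TIM, whereas the miR-200 family members ranged widely within each tumor type.

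**Figure D2:**
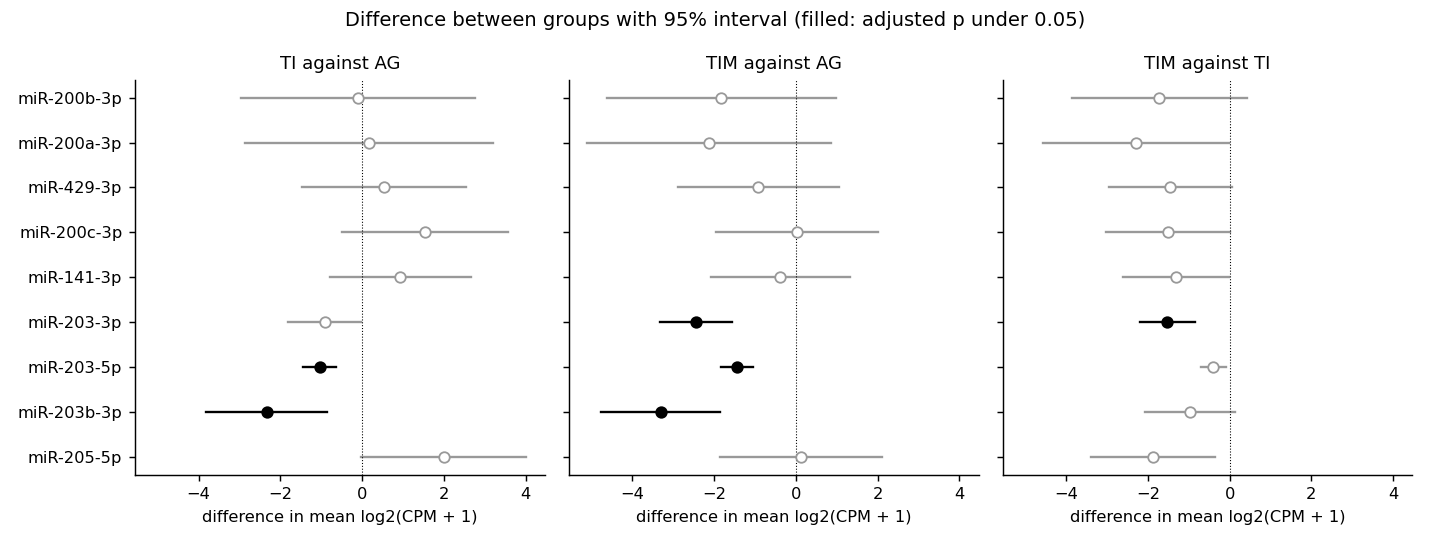
Log2 differences of group means, log2(CPM + 1), with their 95% limma confidence intervals for the 7 miRNAs and for miR-203-5p and miR-203b-3p in the 3 comparisons, filled where the adjusted p was under 0.05. MiR-203-3p was called lower in TIM than in AG and in TI, with differences of -2.44 and -1.53.

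MiR-203-3p was the most abundant of the 7 in every group mean, although levels of different small RNAs also depend on how well each is ligated and amplified. It measured 1107, 1182 and 1711 CPM in AG. In TI it measured 652, 330, 381, 1707, 939, 613 and 964 CPM (libraries A to G), so that 6 of 7 tumors lay below every adrenal gland and TI D lay within their range. In TIM it measured 159 to 366 CPM with a median of 243 CPM, and all 8 tumors lay below every adrenal gland, where 43.1% of all miRNAs tested had groups that did not overlap. Of the TIM tumors, 6 of 8 also lay below every TI tumor, the exceptions being TIM C with 338 CPM and TIM F with 366 CPM.

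The group means of miR-203-3p were 1333 ± 329 CPM in AG (SD, n = 3), 798 ± 469 CPM in TI (n = 7) and 252 ± 81.8 CPM in TIM (n = 8). The log2 difference was -2.44 between TIM and AG (SE 0.42, limma adjusted p = 9.71e-05, 5.43-fold lower) and -1.53 between TIM and TI (SE 0.32, limma adjusted p = 0.0077, 2.88-fold lower). Between TI and AG it was -0.91 (SE 0.43, limma adjusted p = 0.075), with a 95% interval from -1.81 to -0.02, and without library TI D it was -1.13 and called (adjusted p = 0.020). When library totals excluded miR-148a-3p, it was -0.39 (adjusted p = 0.50), a scaling that moved the median of all miRNAs by 0.32. The difference between TIM and TI held with each library left out (-1.71 to -1.31, adjusted p from 0.0047 to 0.018) and without TI E and TIM A (-1.37, adjusted p = 0.021). It lost its call without the TMM factors (-0.97, adjusted p = 0.067). That scaling moved the median of all miRNAs by 0.42, and relative to that median the difference was -1.59 with the factors and -1.46 without them. The largest TMM factors, 1.80 and 1.85, were those of TIM C and TIM F.

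The miR-203 locus gives a second view of this fall, since other mature strands come from the same bases. MiR-203-3p held over 99% of the reads of its hairpin in each group, and the opposite arm, miR-203-5p, was low. The hairpin of miR-203b (gene Gm51289) lies on the other strand (chr12:112130887-112130946), and its miR-203b-3p is complementary to miR-203-5p over 20 of 20 overlapping bases, so the 2 sequences are given side by side.
miR-203-5p: aGUGGUUCuugacaguucaaca
miR-203b-3p: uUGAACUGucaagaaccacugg
MiR-203-5p measured 2.59, 1.73 and 3.33 CPM in AG, 0.272 to 1.57 CPM in TI and 0.184 to 0.372 CPM in TIM. Every tumor of both types lay below every adrenal gland, where groups did not overlap for 46.4% (TI) and 43.1% (TIM) of all miRNAs tested. The log2 differences to AG were -1.04 in TI (SE 0.19, limma adjusted p = 0.00021) and -1.44 in TIM (SE 0.19, limma adjusted p = 6.48e-06). These values of miR-203-5p rested on 3 to 26 reads per library in TI and on fewer than 10 reads in all 8 TIM libraries. MiR-203b-3p measured 36.5, 62.5 and 93.7 CPM in AG, 2.19 to 39.9 CPM in TI (median 14.0) and 1.999 to 17.2 CPM in TIM (median 3.75). It was called lower than AG in TI (-2.34, SE 0.71, limma adjusted p = 0.0097) and in TIM (-3.31, SE 0.69, limma adjusted p = 0.00071). In TI that call was lost without library AG C (adjusted p = 0.055) and when library totals excluded miR-148a-3p (adjusted p = 0.076). Between TIM and TI neither passed the limma threshold, with -0.40 for miR-203-5p (adjusted p = 0.092) and -0.97 for miR-203b-3p (adjusted p = 0.29), while DESeq2 called miR-203-5p (-1.43, adjusted p = 0.0060). The strand setting of the counting is not given in the sources used here, and without strand the reads of miR-203-5p and miR-203b-3p could not be told apart. The other opposite-strand pair, miR-203-3p and miR-203b-5p, is also complementary over 20 of 20 overlapping bases. In AG, miR-203-3p had 23950 to 36974 reads per library and miR-203b-5p 0 to 2. Of the first pair, miR-203-5p had 37 to 72 reads and miR-203b-3p 789 to 2026 in AG. The reads of neither pair were thus given equally to both strands.

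The chromosome 4 members varied widely within each group, the glands included. MiR-200b-3p measured 218, 26.0 and 21.8 CPM in AG. In TI it measured 93.0, 6.88, 566, 63.4, 5.82, 10.1 and 279 CPM (libraries A to G), a 97.2-fold range. In TIM it measured 13.3, 9.99, 4.54, 162, 6.79, 4.28, 4.05 and 64.1 CPM (libraries A to H), a 40.0-fold range. Both tumor types therefore held libraries above and below the adrenal glands AG B and AG C, and the groups overlapped.

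MiR-200a-3p, which lies next to it but carries the other seed, followed the same libraries. It measured 148.2, 21.8 and 21.2 CPM in AG, 3.63 to 773 CPM in TI (median 70.9) and 1.88 to 137 CPM in TIM (median 4.78). MiR-429-3p was lower throughout, at 10.2, 1.49 and 1.76 CPM in AG, 0.481 to 44.0 CPM in TI (median 4.47) and 0.235 to 9.27 CPM in TIM (median 0.564). Its values rested on 9 reads each in TI E and TIM F and on 6 reads each in TIM A and TIM G. In each of the 3 members the gland AG A was well above the other two glands, 6 of 8 TIM tumors lay below every gland, and TI C and TI G were the highest tumors.

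Between TI and AG the log2 differences of these 3 members were -0.10 for miR-200b-3p, 0.18 for miR-200a-3p and 0.53 for miR-429-3p, with intervals of -2.95 to 2.75, -2.86 to 3.21 and -1.48 to 2.54. The sign of the first turned with a pseudocount of 5, with edgeR and DESeq2, when totals excluded miR-148a-3p and without TI E and TIM A, and that of miR-200a-3p turned without the TMM factors. Between TIM and AG the differences were -1.83, -2.12 and -0.92, with limma adjusted p of 0.26, 0.23 and 0.43. Between TIM and TI they were -1.72 (SE 1.02), -2.30 (SE 1.09) and -1.45 (SE 0.72), with limma adjusted p of 0.34, 0.22 and 0.24. None of these 9 differences passed the adjusted limma threshold. With DESeq2, miR-200a-3p (-2.83, adjusted p = 0.039) and miR-429-3p (-2.57, adjusted p = 0.039) were called lower in TIM than in TI.

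The chromosome 6 members were lower than miR-200b-3p and miR-200a-3p in AG and covered a 58.7-fold (miR-200c-3p) and 71.5-fold (miR-141-3p) range in TI. MiR-200c-3p measured 5.41, 4.48 and 4.35 CPM in AG, close together where miR-200b-3p was not. In TI it measured 20.3, 6.03, 128, 19.9, 5.02, 2.18 and 44.5 CPM (libraries A to G), so that 5 of 7 tumors were above every gland. In TIM it measured 4.16, 2.42, 4.18, 44.2, 1.88, 1.91, 1.94 and 12.9 CPM (libraries A to H), with 6 of 8 tumors below every gland and TIM D and TIM H above.

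MiR-141-3p measured 1.53, 0.886 and 1.39 CPM in AG, 0.544 to 38.9 CPM in TI (median 1.97) and 0.0465 to 7.03 CPM in TIM (median 0.275). Its values in TIM A, TIM B and TIM F rested on 2, 3 and 1 reads. Between TI and AG the log2 difference was 1.54 for miR-200c-3p (SE 0.97, limma adjusted p = 0.19) and 0.94 for miR-141-3p (SE 0.83, limma adjusted p = 0.35). Between TIM and AG they were 0.04 and -0.38, and between TIM and TI -1.50 (SE 0.72, limma adjusted p = 0.22) and -1.32 (SE 0.62, limma adjusted p = 0.22). None passed the limma threshold, and DESeq2 called miR-141-3p lower in TIM than in TI (-2.67, adjusted p = 0.045).

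Summed by seed, the AAUACUG group (miR-200b-3p, miR-200c-3p and miR-429-3p) reached 27.9, 32.0 and 234 CPM in AG, 11.3 to 738 CPM in TI (median 87.8) and 6.33 to 215 CPM in TIM (median 11.5). The AACACUG group (miR-200a-3p and miR-141-3p) reached 22.6, 22.7 and 150 CPM in AG, 4.27 to 812 CPM in TI (median 72.8) and 2.11 to 144 CPM in TIM (median 5.21). By group mean, miR-200b-3p and miR-200a-3p of the chromosome 4 locus made up most of these sums.

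The 5 family members were highest in the same tumors, across both loci. Among the 15 tumor libraries, TI C ranked 1 and TI G ranked 2 for all 5 members, and TIM D ranked 3 for 4 of the 5. The order of the lower tumors was less uniform, TIM A ranking 7 for miR-200b-3p and 10 to 15 for the other members. Within TI, on the log2(CPM + 1) scale, Pearson's r was 0.99 for miR-200a-3p with miR-200b-3p, 0.99 for miR-200b-3p with miR-429-3p and 0.95 for miR-200c-3p with miR-141-3p (rho 0.96, 1 and 0.96, exact permutation p of r adjusted over 16 relations 0.0032, 0.0032 and 0.0038). Across the loci, r of miR-200b-3p with miR-200c-3p was 0.95 and rho 0.89 (n = 7, exact permutation p adjusted over 16 relations = 0.0095 and 0.025), and r was 0.93 without TI C and TI E, the 2 libraries farthest from the median. These miRNAs differ at only 2 of 22 bases, and the part of reads split between them in this r was not tested.

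Within TIM, Pearson's r of most relations between family members rested on 2 libraries. The r of miR-200b-3p with miR-200c-3p was 0.95 and rho 0.71 (n = 8, exact permutation, adjusted p = 0.012 and 0.10), but r was 0.41 without TIM D and TIM H. Without them r fell to 0.55 for miR-200a-3p with miR-200b-3p, to 0.21 for miR-200b-3p with miR-429-3p and to -0.14 for miR-200c-3p with miR-141-3p, and stayed at 0.85 for miR-200a-3p with miR-429-3p. The other 6 TIM libraries were low in all 5 members, with 1 to 12 reads of miR-141-3p. Over all 8 libraries, rho was 0.86 for miR-200a-3p with miR-200b-3p and 0.93 for miR-200a-3p with miR-429-3p (exact permutation, adjusted p = 0.024 and 0.0089). It was 0.64 for miR-200b-3p with miR-429-3p and 0.55 for miR-200c-3p with miR-141-3p (exact permutation, adjusted p = 0.15 and 0.25).

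**Figure D3:**
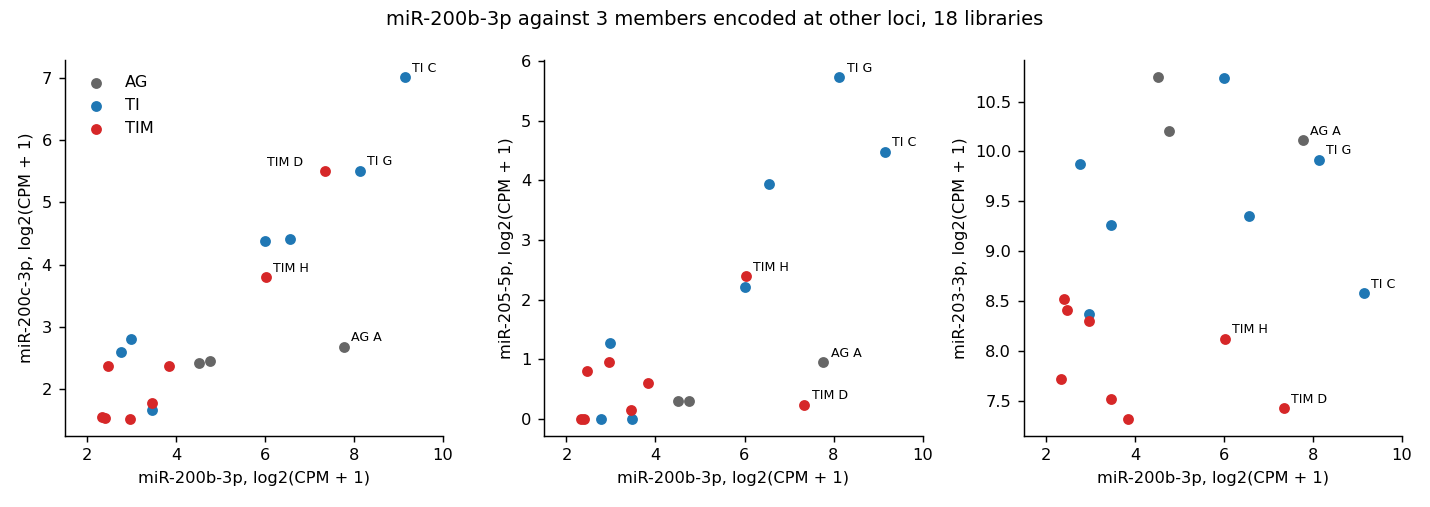
Each point is 1 of 18 libraries, with miR-200b-3p on the x axis and miR-200c-3p, miR-205-5p or miR-203-3p on the y axis, all as log2(CPM + 1). Tumors high in miR-200b-3p were high in miR-200c-3p, TIM D was high in miR-200b-3p but not in miR-205-5p, and miR-203-3p showed no such order.

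MiR-203-3p did not share this pattern. Its r with miR-200c-3p was -0.04 in TI and -0.35 in TIM (rho 0.07 and -0.43), with exact permutation p adjusted over 16 relations of 0.996 and 0.51. In TI, r was 0.45 without TI C and TI F. TI C, the highest tumor for the miR-200 family, ranked 6 of 15 for miR-203-3p and TIM D ranked 14, while TI G ranked 2 for miR-203-3p as for the family.

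Likeness to miR-200b-3p was also computed, from deviations from the mean of each tumor type, for the other members whatever their level and for every non-member averaging 10 CPM or more over the 15 tumor libraries. Over these 15 libraries r was 0.98 for miR-200a-3p, 0.97 for miR-429-3p, 0.95 for miR-200c-3p, 0.92 for miR-141-3p, 0.77 for miR-205-5p and -0.11 for miR-203-3p. The 391 other miRNAs ranged from -0.64 to 0.53, with a median of 0.02, and 1 of them exceeded 0.5. The most similar were miR-344b-3p (0.53), miR-335-3p (0.50) and miR-148b-3p (0.47). The points share libraries, scaling and the few tumors with high values, so these r are a description. Reads may also have been split between near-identical family members.

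**Figure D4:**
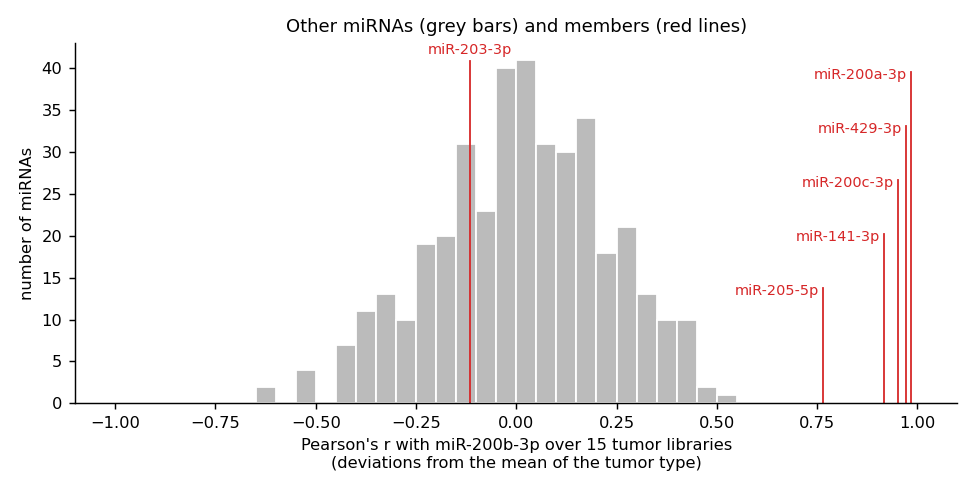
Histogram of Pearson's r with miR-200b-3p over 15 tumor libraries for 391 other miRNAs (grey bars) and the 6 remaining members (red lines). The other miRNAs ended at 0.53, the 4 remaining miR-200 family members lay between 0.92 and 0.98 and miR-203-3p lay at -0.11.

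For miR-200c-3p the most similar non-members were miR-539-5p (0.52), miR-148b-3p (0.51) and miR-190a-5p (0.45). MiR-203-3p was closest to miR-484 (0.74), to miR-203b-3p from its own locus (0.66) and to miR-423-3p (0.62). Among non-members, miR-205-5p was closest to miR-30e-3p (0.66), miR-340-3p (0.58) and miR-744-5p (0.56), while its r with the member miR-429-3p was 0.80.

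Other epithelium-enriched miRNAs were lower in tumors or did not pass the test. Of 8 such miRNAs (miR-183-5p, miR-96-5p, miR-182-5p, miR-31-5p, miR-192-5p, miR-194-5p, miR-215-5p and miR-375-3p), 4 were called lower in TI than in AG and 3 in TIM than in AG, 0 were called higher, and 0 were called between TIM and TI. Over all miRNAs tested, 29.3% were called lower than AG in TI and 25.9% in TIM, and 26.4% and 25.5% higher. Between TIM and TI 5.23% were called. The miRNAs of the list called lower included miR-192-5p (-2.95 in TI, limma adjusted p = 8.59e-06, and -2.47 in TIM, limma adjusted p = 4.98e-05) and its cluster partner miR-194-5p (-1.64 and -1.58). The median log2 difference of the 8 miRNAs from AG was -1.74 in TI and -1.53 in TIM, and between TIM and TI it was 0.46. MiR-183-5p and miR-182-5p varied widely in TIM (1311 ± 2378 and 1334 ± 2653 CPM, mean and SD), against 161 ± 142 and 379 ± 186 CPM in AG. Their log2 differences between TIM and AG were 0.49 and -1.05, neither of them called. The summed level of the list ranked 7 in TI C, 10 in TI G and 3 in TIM D among the 15 tumors. MiR-375-3p, a neuroendocrine and islet miRNA, was the largest contributor to that sum by group mean, so the ranks say little of the other 7 miRNAs.

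Markers of neighbouring tissue were read in the same 3 libraries. The summed pancreatic acinar miRNAs (miR-216a-5p, miR-216b-5p and miR-217-5p) were 0.968 CPM in TI C and 0.485 CPM in TI G, ranks 12 and 13 of 15, but 156 CPM in TIM D, the highest of all tumors and above the 51.1 to 73.7 CPM in AG. MiR-122-5p, the hepatocyte miRNA, was 9.86 CPM in TI C, 48.1 CPM in TI G and 4.25 CPM in TIM D, against 780 to 2592 CPM in AG. The ciliated epithelium list summed to 822, 807 and 760 CPM in these tumors, below the 1024 to 2224 CPM in AG. AG A, the gland with high chromosome 4 members, had the highest miR-122-5p of the 3 glands, 2592 CPM, and the highest ciliated epithelium sum, 2224 CPM. Its sum of the other epithelium-enriched miRNAs was the lowest, 14395 CPM against 29704 CPM in AG B and 33819 CPM in AG C. Its acinar sum was 51.5 CPM, against 51.1 and 73.7 CPM. The part of other tissue in the miR-200 levels was not tested.

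Most of the remaining lists were lower in tumors than in AG. Stromal miRNAs were called lower than AG in 3 of 3 cases in TI and 2 of 3 in TIM, leukocyte miRNAs in 3 and 4 of 5 and smooth muscle miRNAs in 1 and 2 of 2. Acinar and ciliated epithelium miRNAs were each called lower in 2 of 3 cases in both tumor types, and miR-122-5p in both. Over all miRNAs tested, 29.3% were called lower than AG in TI and 25.9% in TIM. Skeletal muscle and neuroendocrine miRNAs had 0 calls against AG. No list had a call between TIM and TI, where 5.23% of all miRNAs tested were called. Their part in the fall of miR-203-3p was not tested.

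Ratios within a library compare members with little influence of scaling. The log2 ratio of miR-200c-3p to miR-200b-3p, which share a seed but not a locus, was -5.09, -2.30 and -2.09 in the 3 glands. It averaged -3.16 ± 1.68 in AG (SD, n = 3), -1.52 ± 0.97 in TI (n = 7) and -1.30 ± 0.68 in TIM (n = 8). The difference from AG was 1.64 in TI (exact permutation, two-sided, p = 0.13, adjusted over 12 tests 0.27) and 1.86 in TIM (p = 0.024, adjusted 0.15), and 4 of 7 and 7 of 8 tumors lay above every gland. Without AG A these differences were smaller, 0.67 in TI and 0.90 in TIM. Within the chromosome 4 locus, the log2 ratio of miR-200a-3p to miR-200b-3p averaged -0.0029 ± 0.36 in TI and -0.57 ± 0.52 in TIM, a difference of -0.57 (exact permutation p = 0.016, adjusted 0.15). No ratio passed the adjusted threshold in any comparison, the smallest adjusted p being 0.15.

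**Figure D5:**
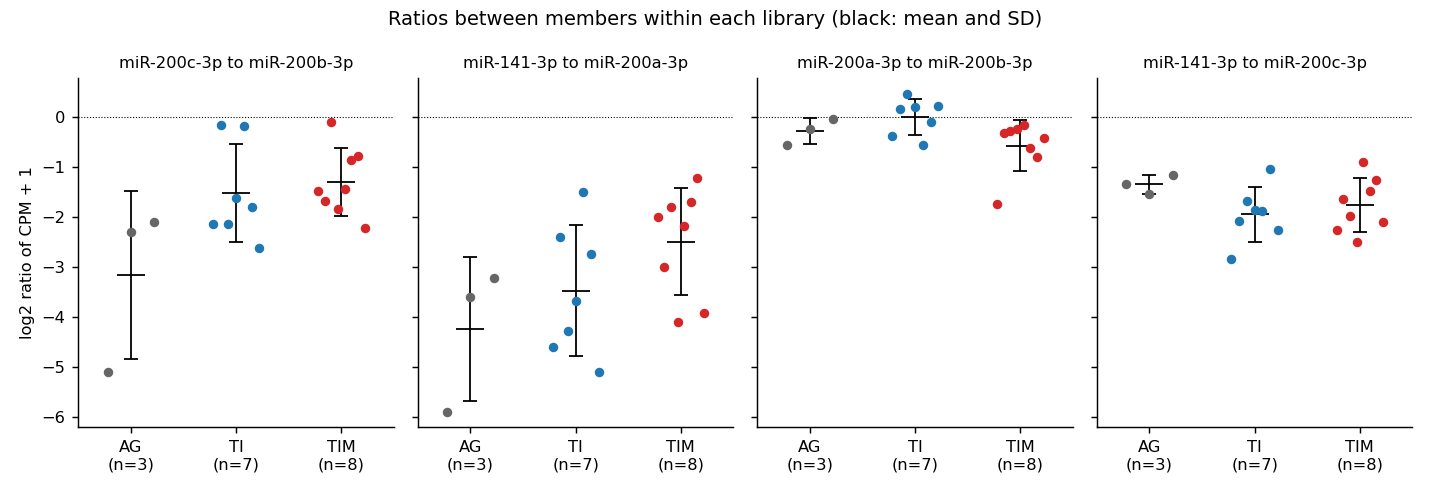
Log2 ratios, log2((CPM + 1)/(CPM + 1)), of 4 pairs of miR-200 family members in every library, with group means as bars. AG A had the lowest ratio of miR-200c-3p to miR-200b-3p among the glands, -5.09, and the groups overlapped for each pair.

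MiR-205-5p was near the floor in AG, with 0.925, 0.233 and 0.231 CPM (20, 5 and 5 reads). In TI it measured 14.3, 1.40, 21.3, 3.62, 0, 0 and 51.9 CPM (libraries A to G), so that 5 of 7 tumors were above every gland. The 0 reads in TI E and TI F allow levels up to 0.160 and 0.272 CPM, counting error only. In TIM it measured 0.510, 0.101, 0.735, 0.179, 0.938, 0, 0 and 4.25 CPM (libraries A to H), and only TIM H exceeded 1 CPM. The TI libraries thus ran from no read, through TI B close to the level of AG A, to values far above every gland.

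The log2 difference of miR-205-5p between TI and AG was 2.001 (SE 0.96, limma adjusted p = 0.083), with an interval from -0.02 to 4.02. It was called without TI E (2.42, adjusted p = 0.029) or without TI F (2.42, adjusted p = 0.033), that is, when either tumor without a read was removed. Between TIM and AG it was 0.12 (SE 0.94), and between TIM and TI -1.88 (SE 0.72, limma adjusted p = 0.11), where DESeq2 gave -3.98 (adjusted p = 0.014). Within TI, miR-205-5p rose and fell with miR-200c-3p although it lies on another chromosome (r 0.89, rho 0.95, n = 7, exact permutation p adjusted over 16 relations = 0.018 and 0.011), and r was 0.94 without TI C and TI F. Within TIM r was 0.30 (rho 0.32, n = 8, exact permutation, adjusted p = 0.51 and 0.53). TIM D, high in all 5 miR-200 family members, had 4 reads of miR-205-5p. The difference between the 2 correlations was not tested.

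The opposite arms of the miR-200 hairpins were minor products. The table listed 9 further mature miRNAs of these hairpins and of miR-203b, of which 4 passed the filter. MiR-200b-3p made up over 99% of the reads of its hairpin in each group, and miR-200a-3p 90.1% in AG, 94.1% in TI and 91.6% in TIM. MiR-429-5p and miR-200c-5p were listed with 0 reads in all 18 libraries. Between TI and AG 2 of the 4 tested arms were called, both lower, where 55.8% of all miRNAs tested were called (29.3% lower). Likewise 2 of 4 were called lower between TIM and AG, where 51.4% of all were called (25.9% lower). They were miR-203-5p and miR-203b-3p in both comparisons, and miR-200a-5p and miR-200b-5p did not pass the test in any comparison.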

How the data were processed

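Small RNA of adrenal gland or tumor tissue was measured in 18 libraries. The labels name TRIzol for the extraction, whereas the study's methods name the Qiagen AllPrep kit for frozen tumors and organs. Per the labels, the authors trimmed reads with cutadapt (version 2.8), aligned them with Bowtie2 (version 2.3.5.1) to mm10, counted with featureCounts (version 2.0.0) and scaled with edgeR (version 3.40). The deposited values are a signal in TMM-scaled CPM. In each column 100% of values were whole multiples of 1 read (tolerance 0.01 reads), so read counts were recovered for the count-based alternatives. Columns with the authors' fold changes and p-values were not used. Groups came from column names.

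Here, limma (version 3.58.1, trend, R 4.3.3) was fitted to log2(CPM + 1) of all 18 libraries for miRNAs that reached 1 CPM in 3 or more of them, with Benjamini-Hochberg adjustment over 726 miRNAs. In a simulation of TI against AG with 200 of 726 miRNAs changed by a log2 of 2, 111 were found, all in the right direction, with 5 false calls. Ratios and correlations used exact permutation tests (scipy 1.17.1), with Spearman's rho beside Pearson's r. Alternatives were pseudocounts 0.1 and 5, other scalings and filters, only 2 groups in the model, edgeR (version 4.0.16), DESeq2 (version 1.42.0) and each library left out. Named were the 7 members, the other mature miRNAs of their hairpins, the 3 non-members most like each of 4 members and the marker lists. Members were taken by name, and members and lists were chosen with earlier results of these data known. Precision is set by 11641696 to 23435621 reads per library; floors of 3 reads cover counting error only.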

Additional observations from a re-analysis of the deposited data

Results flagged for a closer look

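MiR-203-3p differed between the 2 tumor types in its change against AG: the log2 difference between TIM and TI was -1.53, with limma adjusted p = 0.0077. In library TIM H, miR-205-5p stood apart from the other TIM tumors, at 4.25 CPM against at most 0.938 CPM, with a gap of 0.60 of the group's range on the log2 scale. In library TIM A, the log2 ratio of miR-200a-3p to miR-200b-3p was the lowest of the TIM tumors, with a gap of 0.59 of the range, and this library also had the highest skeletal muscle miRNAs. Both gaps exceeded Dixon's 95% critical value. Of 22 groups tested, 2 gave such a gap, and chance alone gives about 1 group in 20.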

How the results depend on the processing

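Against a main count of 0 members called between TI and AG, DESeq2 gave 2 and the fit without TI E and TIM A gave 1 (miR-205-5p), and leaving out libraries in turn gave 0 to 1, with 1 without TI D (miR-203-3p), TI E or TI F (miR-205-5p). Between TIM and AG, 1 member was called in each alternative. Between TIM and TI, where 1 was called, CPM without the TMM factor gave 0 and DESeq2 5, and leaving out libraries always gave 1. The count over all miRNAs between TIM and TI, 38, was 21 with a pseudocount of 5, 155 without the TMM factor (138 higher and 17 lower, against 25 and 13), 17 at a minimum of 10 CPM, 23 with only the 2 groups, 3 with edgeR and 123 with DESeq2 (56 higher and 67 lower), and 24 to 72 with libraries left out. The other counts over all miRNAs, with libraries left out, were 310 to 432 between TI and AG and 242 to 381 between TIM and AG, the lowest without AG A. Differences between TI and AG that changed sign were those of miR-200b-3p (main -0.10), 0.015 with a pseudocount of 5, 0.41 with totals excluding miR-148a-3p, 0.83 with edgeR, 0.76 with DESeq2, 0.37 without TI E and TIM A and -0.69 to 0.95 with libraries left out, of miR-200a-3p (main 0.18), -0.024 without the TMM factor and -0.49 to 1.08 with libraries left out, of miR-200b-5p (main 0.0069), -0.053 with a pseudocount of 0.1, -0.060 without the TMM factor and -0.25 to 0.41 with libraries left out, and of miR-200a-5p (main -0.028), 0.13 with a pseudocount of 5, 0.37 with totals excluding miR-148a-3p, 0.69 with edgeR, 0.61 with DESeq2, 0.28 without TI E and TIM A and -0.44 to 0.69 with libraries left out. Between TIM and AG, miR-200c-3p (main 0.04) was -0.057 with a pseudocount of 0.1 and -0.38 to 0.18 with libraries left out, miR-141-3p (main -0.38) was 0.17 with edgeR and 0.052 with DESeq2, and miR-205-5p (main 0.12) was -0.15 with a pseudocount of 0.1 and -0.13 to 0.34 with libraries left out. The ratio of miR-141-3p to miR-200c-3p between TIM and TI (main 0.19) was -0.66 with a pseudocount of 0.1, and that of miR-141-3p to miR-200a-3p between TI and AG (main 0.76) was -0.063 to 1.27 with libraries left out. The r of miR-203-3p with miR-205-5p was 0.0074 in TI with a pseudocount of 5 and -0.016 in TIM without the TMM factor. Without the 2 farthest libraries, r was 0.45 for miR-200c-3p with miR-203-3p in TI and -0.14 for miR-200c-3p with miR-141-3p in TIM. None of these values was past a test's threshold in the main analysis except the last relation, and the causes were not tested. No paired analysis was possible because column names hold a group and a repeat counter, but nothing that pairs libraries across groups. Depth limited miR-429-3p, miR-141-3p, miR-205-5p and miR-203-5p, which had fewer than 10 reads in several tumors.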
